A study of Mus musculus with 10 samples.

Results

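The genes described here encode the subunits of the oxidative phosphorylation system, in RAW264.7 cells kept in medium or in medium with doxorubicin for 24 h. They were chosen by symbol alone: every nuclear gene of the FPKM table whose symbol begins with Nduf, a letter (a, b, c, s or v) and a digit, with Uqcr, with Cox4 to Cox8 or with Atp5, or is Sdha, Sdhb, Sdhc or Sdhd, and the 13 protein genes of mitochondrial DNA. The rule found 101 of the 22186 genes in the table, 88 nuclear and 13 mitochondrial. FPKM, the deposited unit, is a fragment number divided by transcript length and by library size. Messenger RNA was enriched on oligo(dT) beads and sequenced from 10 libraries, 5 per group. RAW264.7 cells are an established mouse line with macrophage features, grown from the tumour of a mouse given a leukaemia virus, and are labelled as wild type in both groups, and the series title names the senescence-associated secretory phenotype as its question. Doxorubicin is an anthracycline that intercalates into DNA and blocks topoisomerase II. Its dose is uncertain, since the sample titles name 10 nM, the design text names 100 nM and calls that the right value, and the stated dilution of the stock gives 1000 nM. The labels name dimethyl sulfoxide as the solvent of the drug and name no solvent for the medium group, so drug and solvent cannot be told apart. Cells were lysed well by well, and nothing in the labels says that the wells were independent cultures. The spread behind each p-value is that between these libraries and may be technical.

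Oxidative phosphorylation turns the energy of nutrients into ATP at the inner mitochondrial membrane. Complexes I and II take electrons from NADH and succinate, complex III passes them on to cytochrome c, and complex IV hands them to oxygen, while complexes I, III and IV pump protons. Complex V, the ATP synthase, lets the protons flow back and makes ATP. Complexes I, III, IV and V are built from subunits of both genomes, and complex II is wholly nuclear. Mitochondrial DNA is transcribed inside the organelle from both strands into long precursors that are cut into single messages, and most of these carry a short poly(A) tail. Macrophages are known to lower or raise their use of this pathway with their state of activation.

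FPKM values summed to 338293 to 356111 per library, 8207 to 9125 genes were listed at 0, and the table holds no read totals, so the depth is unknown. Among markers of macrophages, 9 of 10 had a mean of at least 1 FPKM (the exception was Mertk, at 0.314 FPKM), and their summed level was 1416 to 1561 FPKM in medium and 1482 to 1687 FPKM in doxorubicin. None of 6 fibroblast, 7 epithelial and endothelial or 8 lymphocyte markers reached a mean of 1 FPKM, and 4, 2 and 5 of them were at 0 in every library. The 2 libraries numbered replicate 1 stood apart from the others (correlation of log2 values 0.937 to 0.982 with the other libraries, against 0.976 to 0.998 among those), so results are also given without them. In bulk RNA, fewer cells of a type and less RNA per cell cannot be told apart.

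The sequences of the mitochondrial genes bear on how their levels can be read, because chromosome 1 holds a copied stretch of mitochondrial DNA. In the GENCODE release M21 annotation (build GRCm38; the FPKM values were made on GRCm39 and no coordinates were converted), 7 unprocessed pseudogenes on the minus strand of that stretch match mitochondrial members. COX2 (mitochondrial genome, bases 7013 to 7696, plus strand) matched Gm28661 (chr1:24614885-24615565) at all 681 aligned bases. ATP6, COX3 and ND4L matched Gm10925, Gm28437 and Gm10222 without a difference over 678, 783 and 294 bases. ND3 differed from Gm28438 (chr1:24612775-24613119) at 1 of 345 bases, the substitution T3C (counted from 1 at the first base of the gene, with the base of the gene named first). For ND4 only 63.6% of the gene had a copy (Gm28439), and for COX1 31.3% (Gm29216, with 1 difference, A1066T). ATP8 has no annotated copy of its own, but 233 bases lie between the chromosome 1 copies of COX2 and ATP6, where 230 lie between the mitochondrial genes. The first 60 bases of COX2 and ND3 and of their copies, 5′ to 3′ with the differing base in capitals, are shown to let the likeness be seen.
COX2: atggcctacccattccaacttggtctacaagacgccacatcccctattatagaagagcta
Gm28661: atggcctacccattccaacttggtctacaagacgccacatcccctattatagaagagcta
ND3: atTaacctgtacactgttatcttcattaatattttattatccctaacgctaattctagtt
Gm28438: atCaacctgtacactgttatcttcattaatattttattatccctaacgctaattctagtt

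A fragment that lies wholly within such a stretch cannot be told from one of the chromosome 1 copy. None of the 7 copies is listed in the FPKM table, and how fragments with more than 1 match were assigned is not given in the sources used here. The 6 members inside the copied stretch (COX2, ATP8, ATP6, COX3, ND3 and ND4L) had a median of 25.3 FPKM in medium, and the 7 others (ND1, ND2, COX1, ND4, ND5, ND6 and CYTB) a median of 591.7 FPKM. COX1 lay 91.5 to 210.9 times above COX2 within a library and 106.7 to 270.8 times above COX3, although all of them encode subunits of complex IV. ND1 lay 327.3 to 1163 times above ND3. Counted over all annotated transcripts, 62.2% of the 50-base windows of ND4, 51.0% of COX1, 8.2% of ND2 and 7.6% of ND5 recur in another gene, and 0% of ND1, ND6 and CYTB. ATP8 was also at 0%. Its place among the 6 rests on the spacing given above, since the bases between the chromosome 1 copies of COX2 and ATP6 were not aligned. Levels of the 6 members, and in part those of ND4 and COX1, are therefore uncertain. The part of shared sequence in the differences between groups was not tested.

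Doxorubicin was compared with medium on log2(FPKM + 1), a scale that understates changes of genes near 1 FPKM, among the 9869 genes that averaged 1 FPKM or more. Of the members, 93 entered the test, 80 nuclear and all 13 mitochondrial. The 8 that did not (Ndufb4c, Ndufs6b, Ndufa4l2, Cox4i2, Cox6b2, Cox7b2, Cox8b and Cox8c) had no value above 0.734 FPKM in any library, and Cox7b2 and Cox8c were at 0 in all. With group as the only term in limma, 1 member was higher in doxorubicin at an adjusted p under 0.05 and none was lower, where 0.689% of all tested genes were called higher and 0.223% lower. The member was COX2. Without adjustment, 33 members were higher at p under 0.05 and 1 was lower (6.62% and 11.2% of all tested genes). The 33 include Ndufb4b, which passed the filter only through its doxorubicin values.

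Same-numbered libraries deviated together, and when that number entered the fit as a block, limma called 31 members higher and 1 lower, where it called 7.81% of all tested genes higher and 13.7% lower. The 31 were 8 of the 13 mitochondrial and 23 of the 80 tested nuclear members. The median level in medium was 118.2 FPKM over the tested members and 12.8 FPKM over all tested genes. The shares of all tested genes are thus not matched for level. Of the 93 members 46 were higher in all 5 replicate numbers and 3 lower, beside 13.2% and 23.1% of all tested genes. The 5 doxorubicin libraries all lay above the 5 medium libraries for 15 members and below them for none, beside 2.73% and 3.97% of all tested genes. With both replicate 1 libraries left out, 5 members were called higher without the block and 37 with it (background 2.87% and 10.2%), and none and 2 lower (2.77% and 18.4%). When the numbers were joined into 3 sets (1, 2 with 3, 4 with 5), a grouping chosen after the data were seen, 47 were called higher and 2 lower (12.2% and 19.9%). The median log2 fold change was 0.51 over the mitochondrial members, 0.11 over the nuclear ones and -0.03 over all tested genes. Without replicate 1 these were 0.37, 0.09 and -0.04. Calls named below without the word block are from the fit with group only, and the ± beside a log2 fold change is the SE of that fit.

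COX2, which carries the copper centre that takes electrons from cytochrome c, was the only member past the threshold. It was at 20.3, 28.2, 25.4, 20.6 and 39.5 FPKM in medium replicates 1 to 5 and at 46.0, 40.8, 44.6, 49.2 and 45.8 FPKM in doxorubicin replicates 1 to 5. Every doxorubicin library lay above every medium library, and medium replicate 5 came closest. The log2 fold change was 0.77 ± 0.16 (SE, n = 5 per group; limma adjusted p = 0.0492; with the block 0.00840; with the block and without replicate 1 0.00528). The call was kept when medium replicate 1 (adjusted p = 0.0419) or medium replicate 5 (0.0195) was left out, and lost when any 1 of the other 8 libraries was (0.0647 to 0.134). It was also lost with a pseudocount of 0.1 (0.0508), with all genes tested (0.083), with totals that leave out mitochondrial genes (0.0513) and in the exact permutation test over libraries (0.118 after adjustment).

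The catalytic centre of complex IV stands beside it. COX1, the subunit with the heme and copper site where oxygen is reduced, was the highest member, at 3924, 4670, 4245, 4345 and 4298 FPKM in medium and 4210, 4149, 4520, 5227 and 4845 FPKM in doxorubicin. The groups overlapped, doxorubicin replicate 2 lay below its medium partner, and the log2 fold change of 0.09 ± 0.08 did not pass the test (adjusted p = 0.576; block 0.296). COX1 made up 42.6 to 61.8% of all mitochondrially encoded FPKM. COX3, a core subunit without metal centres, was at 14.5, 23.2, 22.3, 19.6 and 39.5 FPKM in medium and 39.5, 34.8, 37.9, 47.6 and 44.4 FPKM in doxorubicin. All doxorubicin libraries lay above medium replicates 1 to 4, medium replicate 5 lay among them, and COX3 passed the threshold with the block only (log2 fold change 0.82 ± 0.21; adjusted p = 0.103; block 0.0118).

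The mitochondrial members of complex V were ATP6, which forms the proton path beside the rotor, and ATP8, a small membrane subunit that overlaps it in the genome. ATP8 was at 28.8, 35.5, 38.3, 34.3 and 49.3 FPKM in medium and 57.2, 51.2, 49.9, 71.8 and 63.4 FPKM in doxorubicin, with no overlap between the groups. Its log2 fold change of 0.65 ± 0.14 missed the threshold (adjusted p = 0.0602) and passed it with the block (0.00705). ATP6 was at 23.0, 30.3, 32.3, 31.4 and 51.2 FPKM in medium and 41.8, 36.0, 48.7, 55.5 and 46.0 FPKM in doxorubicin, where replicate 5 was lower than its medium partner and the groups overlapped. Its log2 fold change was 0.46 ± 0.18 (adjusted p = 0.224; block 0.0419; block without replicate 1 0.0516). Since ATP8 and ATP6 overlap, fragments over the shared bases could be counted for either.

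In complex III, CYTB encodes cytochrome b, the subunit with the quinone sites. It was at 695, 1346, 1306, 1187 and 1221 FPKM in medium and 1559, 1398, 1525, 1614 and 1514 FPKM in doxorubicin. Every doxorubicin library was above every medium library, and medium replicate 1 was far below the other 4. The log2 fold change was 0.44 ± 0.16 (adjusted p = 0.189; block 0.0509). Without replicate 1 it was 0.26, smaller but past the threshold (adjusted p = 0.0456; with the block 0.0124), and without medium replicate 1 alone it was 0.27.

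The 7 mitochondrial members of complex I build its membrane arm, which pumps protons. All had a positive log2 fold change (median 0.51), all were higher in each of the 5 replicate numbers, and 4 (ND2, ND3, ND4L and ND6) passed the threshold with the block. Without replicate 1 the median was 0.31 and all 7 passed with the block. Of all tested genes, 13.2% were higher in all 5 numbers. With the block 7.81% of them were called higher, and 10.2% when replicate 1 was also left out. ND1, next to the quinone site, was at 669, 1788, 1708, 1393 and 1422 FPKM in medium and 1379, 1873, 1846, 1867 and 1786 FPKM in doxorubicin. The groups overlapped, and replicate 1 was the lowest library of its group on both sides (log2 fold change 0.39 ± 0.23; adjusted p = 0.408; block 0.0543). Without medium replicate 1 alone the log2 fold change was 0.15. ND2 was at 308, 699, 692, 555 and 705 FPKM in medium and 779.8, 822, 800.1, 828 and 812 FPKM in doxorubicin. Its doxorubicin libraries lay within a narrow band above every medium library, and the log2 fold change was 0.51 ± 0.20 (adjusted p = 0.219; block 0.0459), or 0.31 without replicate 1 and 0.29 without medium replicate 1 alone.

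ND4 and ND5 are relatives of bacterial antiporters. ND4 was at 263, 465, 473, 427 and 443 FPKM in medium and 518, 477, 518, 564 and 518 FPKM in doxorubicin, and ND5 at 325, 614, 585, 537 and 639 FPKM in medium and 744, 642, 676, 817 and 756 FPKM in doxorubicin. In neither did the groups overlap, medium replicate 1 was lowest in both, and the log2 fold changes were 0.35 ± 0.15 and 0.46 ± 0.17 (adjusted p = 0.238 and 0.189; block 0.0660 and 0.0511). Without medium replicate 1 alone they were 0.20 and 0.29. ND4L and ND3, small membrane subunits, were low by FPKM. ND4L was at 6.23, 11.2, 9.14, 9.34 and 14.8 FPKM in medium and 15.3, 14.5, 18.0, 19.6 and 17.4 FPKM in doxorubicin, and ND3 at 0.575, 2.96, 2.17, 1.79 and 3.25 FPKM in medium and 3.12, 4.27, 3.85, 4.24 and 5.46 FPKM in doxorubicin. Only the highest medium library of each, replicate 5, reached into the doxorubicin range. The log2 fold changes were 0.73 ± 0.18 and 0.78 ± 0.24 (adjusted p = 0.0917 and 0.138; block 0.0103 and 0.00644).

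ND6 is the only member read from the other strand of mitochondrial DNA, where its annotated bases (13552 to 14070) run into the end of ND5 (11742 to 13565). It was at 68.8, 145, 144, 116 and 210.1 FPKM in medium and 268, 196, 193, 288 and 214 FPKM in doxorubicin. Replicates 1 and 4 were highest in doxorubicin, and medium replicate 5 reached into the doxorubicin range. The log2 fold change was 0.83 ± 0.25 (adjusted p = 0.133; block 0.0432), and within replicate numbers the difference ran from 0.03 (replicate 5) to 1.94 (replicate 1). Whether counting used the strand is not given in the sources used here, so fragments of ND6 and of transcripts from the opposite strand cannot be told apart.

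**Figure D1:**
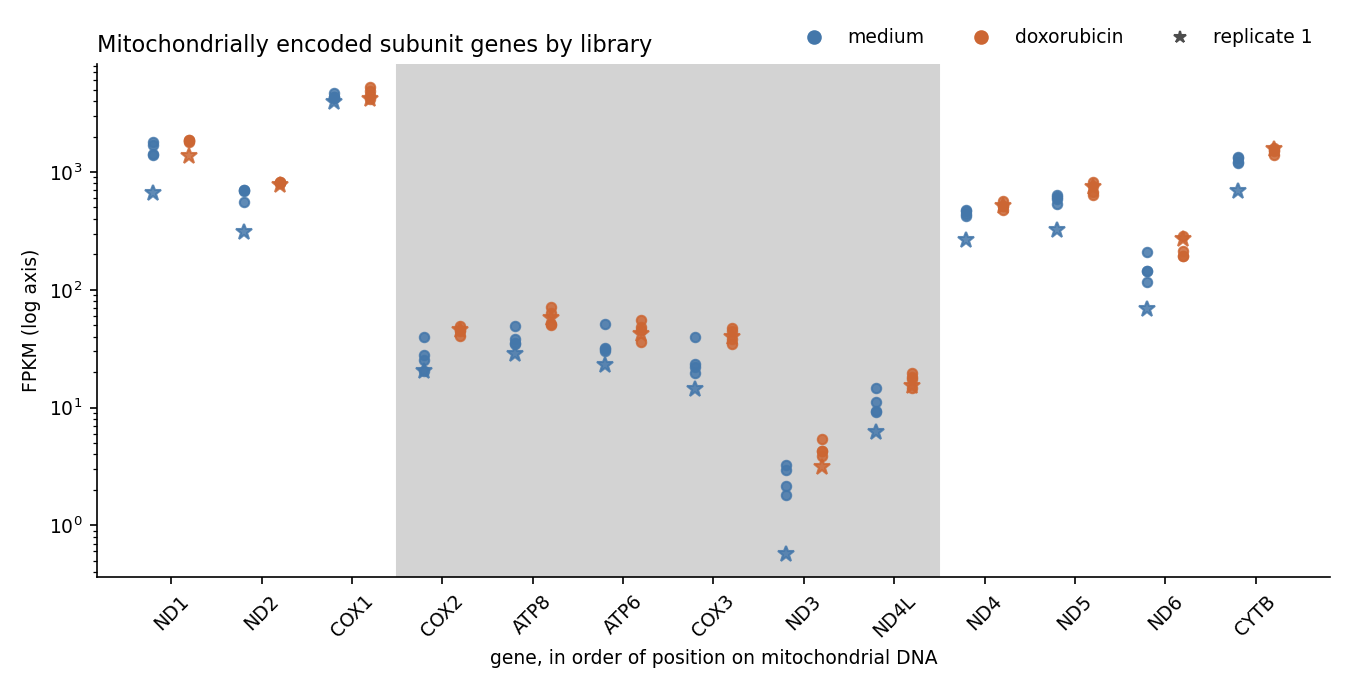
FPKM (log axis) of each mitochondrially encoded member in the 10 libraries, in the order of the genes on mitochondrial DNA, with medium in blue, doxorubicin in orange, replicate 1 as stars and the 6 members inside the copied stretch on grey. Medium replicate 1 is the lowest of the 10 libraries for all 13 genes, and the 6 shaded genes lie between 0.575 and 71.8 FPKM.

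Within replicate numbers the median difference over the 13 mitochondrial members was 1.17, 0.24, 0.37, 0.81 and 0.22 (log2) for numbers 1 to 5, and over the nuclear members 0.16, 0.02, 0.09, 0.09 and 0.13. Both sets were thus positive in each number, and the mitochondrial difference was largest in numbers 1 and 4. The 6 members inside the copied stretch had a median log2 fold change of 0.75 and all 6 passed with the block. For the other 7 mitochondrial members the median was 0.44, and 2 passed. Without replicate 1 the medians were 0.63 and 0.26, and 5 of the 6 and 6 of the 7 passed with the block. The block called 7.81% of all tested genes higher, and 10.2% without replicate 1. Whether these sets of mitochondrial members differ from each other was not tested.

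Summed over the 13 genes, mitochondrially encoded subunits took 1.82, 2.82, 2.70, 2.53 and 2.66% of all FPKM in medium replicates 1 to 5 and 2.71, 2.88, 2.93, 3.30 and 3.07% in doxorubicin. The mean went from 2.51 ± 0.400% to 2.98 ± 0.222% (SD, n = 5), was higher in 5 of 5 replicate numbers, and got no test since it is a sum over members. Without replicate 1 the gap between the group means was 0.365 percentage points in place of 0.472. COX1 alone went from 1.24 ± 0.0774% to 1.32 ± 0.132% (higher in 4 of 5), and the other 12 genes together from 1.26 ± 0.331% to 1.66 ± 0.0947% (higher in 5 of 5). The nuclear members summed to 3.66, 3.74, 3.65, 3.50 and 3.43% in medium and 4.10, 3.97, 3.80, 3.74 and 3.78% in doxorubicin, higher in 5 of 5 (means 3.60 ± 0.129% and 3.88 ± 0.153%). The ratio of mitochondrial to nuclear FPKM was 0.698 ± 0.115 in medium and 0.770 ± 0.0841 in doxorubicin, higher in 4 of 5, and replicate 2 went the other way.

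**Figure D2:**
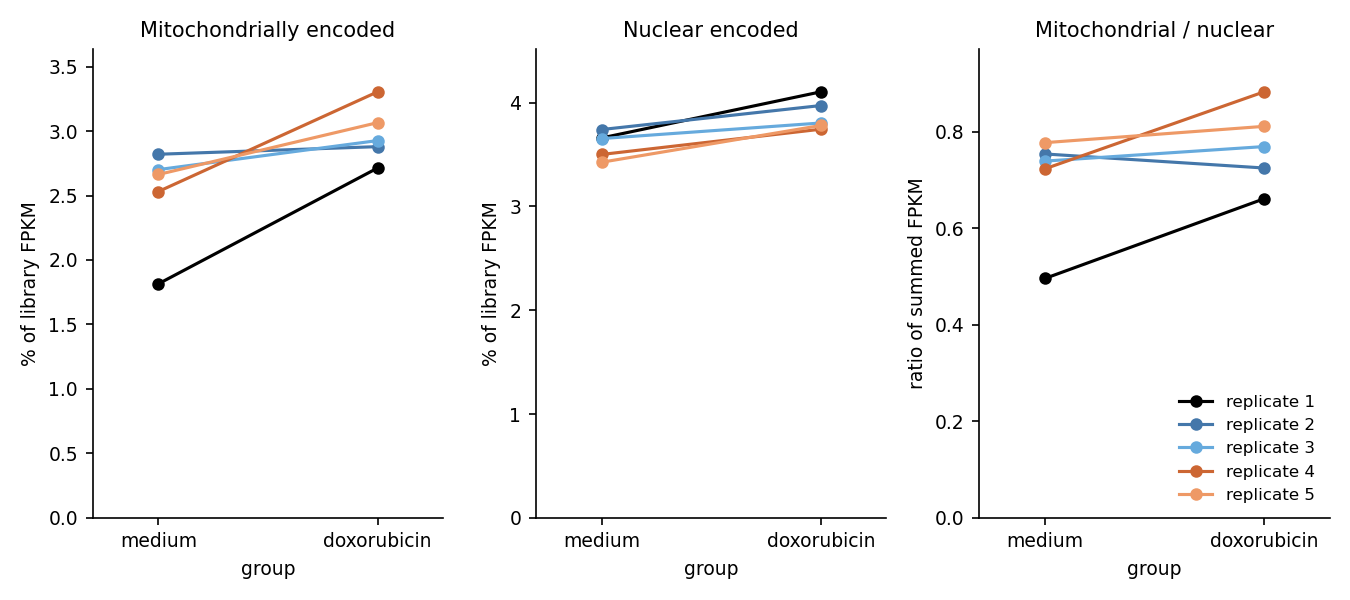
Summed FPKM of mitochondrial members (left) and nuclear members (middle) as a percent of the library's FPKM, and their ratio (right), with 1 line per replicate number from medium to doxorubicin. All 5 lines slope up in the left and middle panels, 4 of 5 on the right, and replicate 1 (black) starts lowest on the left at 1.82%.

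By complex, nuclear subunits took 0.819 ± 0.0230% of FPKM in medium and 0.846 ± 0.0292% in doxorubicin for complex I, 0.146 ± 0.00613% and 0.154 ± 0.00191% for complex II, and 0.321 ± 0.0225% and 0.360 ± 0.0134% for complex III. Complex IV took 0.947 ± 0.0308% and 1.06 ± 0.0655%, and complex V 1.36 ± 0.0601% and 1.46 ± 0.0519%. Each of these sums was higher in 5 of 5 replicate numbers. None of the 80 tested nuclear members passed the threshold with group only (lowest adjusted p 0.114), 22 were higher and 1 lower at an unadjusted p under 0.05, and with the block 23 passed higher and 1 lower. The 22 include Ndufb4b, which passed the filter only through its doxorubicin values. Of all tested genes, 6.62% were higher and 11.2% lower without adjustment, and 7.81% and 13.7% with the block. The block counts of each complex below are to be read beside these last shares, which are not matched for level.

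Complex I has 37 tested nuclear members with a median log2 fold change of 0.07, and 5 passed with the block, all higher: Ndufb1, Ndufb2, Ndufb6, Ndufc1 and Ndufc2. This was 13.5% of the 37, where 7.81% of all tested genes were called higher. All 5 are accessory subunits of the membrane arm, and 29 of the 37 are accessory subunits. The 7 core subunits, which carry the flavin, iron-sulfur clusters and quinone contacts of the peripheral arm, had a median of -0.01, and none passed with the block. Ndufs1, the largest of the core iron-sulfur subunits, was at 45.7, 49.9, 48.2, 49.4 and 46.4 FPKM in medium and 51.3, 52.0, 55.3, 52.7 and 52.9 FPKM in doxorubicin, without overlap (log2 fold change 0.14 ± 0.05; block adjusted p = 0.0534; block without replicate 1 0.0421). Ndufs7 and Ndufs8, also core iron-sulfur subunits, were the 2 tested complex I members lower in all 5 replicate numbers, at 53.1 ± 2.45 FPKM in medium and 50.2 ± 4.02 FPKM in doxorubicin, and at 122 ± 6.46 and 112 ± 4.88 FPKM (log2 fold change -0.08 ± 0.07 and -0.12 ± 0.06; block adjusted p = 0.219 and 0.0731). These 3 core members were named after their values were seen.

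Ndufb1, a small membrane-arm subunit, was at 75.7, 86.9, 78.9, 74.2 and 71.0 FPKM in medium and 99.2, 94.2, 89.5, 87.2 and 86.7 FPKM in doxorubicin. Only medium replicate 2 reached into the doxorubicin range (log2 fold change 0.24 ± 0.07; adjusted p = 0.126; block 0.0149). Ndufb6 was at 77.2, 86.2, 83.2, 76.8 and 81.1 FPKM in medium and 100.0, 85.8, 88.6, 93.8 and 96.1 FPKM in doxorubicin, with its 2 replicate 2 libraries almost equal (log2 fold change 0.20 ± 0.06; block 0.0499; block without replicate 1 0.0555). Ndufb2, among the lowest complex I members at this length scale, was at 15.6, 16.6, 16.3, 15.1 and 15.1 FPKM in medium and 18.7, 17.6, 17.6, 18.8 and 16.6 FPKM in doxorubicin with no overlap (log2 fold change 0.17 ± 0.06; block 0.0477). Ndufb4b, a gene copy of Ndufb4, was at 0.469, 0.693, 0.819, 0.373 and 1.41 FPKM in medium and 1.41, 1.17, 1.23, 1.64 and 1.17 FPKM in doxorubicin. Its mean was 0.752 FPKM in medium and 1.33 FPKM in doxorubicin, so it passed the filter on low values only through doxorubicin. Its log2 fold change (0.43 ± 0.14; block 0.0571) is therefore not read as a difference. The gene could share fragments with Ndufb4, and its value is uncertain. Ndufb8, the highest nuclear member of complex I, was at 176, 204, 198, 173 and 177 FPKM in medium and 211, 204, 215, 181 and 200.1 FPKM in doxorubicin, where the groups overlapped (log2 fold change 0.12 ± 0.07; block 0.0980).

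Of the 4 members of complex II, 1 passed with the block. Sdhd, a membrane anchor with part of the quinone site, was at 126, 170.2, 158, 135 and 125 FPKM in medium and 162, 169, 169, 159 and 153 FPKM in doxorubicin (log2 fold change 0.19 ± 0.09; adjusted p = 0.293; block 0.0486; block without replicate 1 0.0549). Sdhc, the other anchor, was at 115, 106, 101, 97.3 and 96.1 FPKM in medium and 119, 106, 114, 115 and 109 FPKM in doxorubicin (log2 fold change 0.13 ± 0.07; block 0.0784; block without replicate 1 0.0323). Both anchors overlapped between groups, and their calls went opposite ways when replicate 1 was left out. Sdha, the flavoprotein that oxidises succinate, was at 153, 148, 147, 143 and 140.0 FPKM in medium and 152, 145, 152, 149.9 and 148 FPKM in doxorubicin. Sdhb, the iron-sulfur subunit, was at 112, 114, 112, 114 and 113 FPKM in medium and 112, 107, 109, 111 and 114 FPKM in doxorubicin. Their log2 fold changes were 0.03 ± 0.05 and -0.03 ± 0.05, both within their errors.

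Complex III has 8 tested nuclear members with a median of 0.11, and 3 passed with the block: Uqcr10, Uqcr11 and Uqcrh, all small accessory subunits. Uqcr10 was at 230.0, 249, 252, 228 and 206 FPKM in medium and 296, 281, 272, 264 and 263 FPKM in doxorubicin, with no overlap between the groups (log2 fold change 0.24 ± 0.07; adjusted p = 0.123; block 0.0143). Uqcr11 was at 178, 222, 215, 181 and 186 FPKM in medium and 259.8, 242, 233, 221 and 229 FPKM in doxorubicin, where medium replicate 2 just reached the lowest doxorubicin library (log2 fold change 0.27 ± 0.08; block 0.0224). Uqcrh, the acidic hinge protein next to cytochrome c1, was at 169.5, 179, 168, 114 and 107 FPKM in medium and 218, 185, 187, 184 and 176 FPKM in doxorubicin. Its medium replicates 4 and 5 were the low libraries, and its log2 fold change of 0.39 ± 0.15 was the largest among the nuclear members of complex III (block 0.0290). Uqcrb, which binds near the quinone site, was at 106, 127, 118, 90.3 and 96.7 FPKM in medium and 119, 128, 122, 123 and 119 FPKM in doxorubicin and overlapped (log2 fold change 0.20 ± 0.09; block 0.0668). The Rieske iron-sulfur protein gene Uqcrfs1 was at 103 ± 8.35 FPKM and 104 ± 2.47 FPKM (SD, n = 5), with a log2 fold change of 0.01 ± 0.06. Uqcrq, also a short accessory member (246 coding bases), went the other way and was named after its values were seen. It was at 68.9 ± 4.55 FPKM in medium and 63.9 ± 3.25 FPKM in doxorubicin, higher in 1 of 5 numbers. Its log2 fold change was -0.11 ± 0.06 (block adjusted p = 0.164), and it was called lower with the block and without replicate 1 (0.0287).

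Among the nuclear members, those of complex IV had the highest median, 0.17 over 14 tested, with 7 called higher with the block and 1 lower (Cox6a2). The 11 accessory subunits of the common form all had positive values, 9 of them in all 5 replicate numbers, with a median of 0.20. The 7 were Ndufa4, Cox5a, Cox6b1, Cox6c, Cox7a2, Cox7b and Cox7c. Ndufa4, named for complex I but found in complex IV, was at 221, 275, 277, 237 and 228 FPKM in medium and 314, 306, 297, 292 and 292 FPKM in doxorubicin. The groups did not overlap, and its adjusted p of 0.114 was the lowest of any nuclear member (log2 fold change 0.28 ± 0.08; block 0.0174). Cox6b1, which faces the intermembrane space where cytochrome c docks, was at 339, 342, 339, 276 and 261 FPKM in medium and 433, 375, 390.3, 347 and 369 FPKM in doxorubicin, again without overlap (log2 fold change 0.30 ± 0.10; block 0.0108).

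Cox6c and Cox7b are single-span membrane subunits. Cox6c was at 240.3, 232, 227, 234 and 225 FPKM in medium and 311, 281, 242, 264 and 269 FPKM in doxorubicin, and Cox7b at 161, 173, 164, 145 and 134 FPKM in medium and 199, 183, 175, 175 and 177 FPKM in doxorubicin. In both, each doxorubicin library lay above all medium libraries (log2 fold changes 0.23 ± 0.07 and 0.23 ± 0.08; adjusted p = 0.132 and 0.171; block 0.0150 and 0.0250). Cox4i1, the regulatory subunit that binds ATP and the highest nuclear member of complex IV, was at 747, 638, 611, 678 and 673 FPKM in medium and 882, 686, 692, 682 and 726 FPKM in doxorubicin. Doxorubicin replicate 1 stood above the other 4, the rest overlapped with medium, and the log2 fold change of 0.13 ± 0.09 passed neither fit (block 0.0712) and was 0.06 without doxorubicin replicate 1.

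Complex V has 17 tested nuclear members with a median of 0.14, and 7 passed with the block, all higher. The calls were spread unevenly over its parts. The 5 small membrane subunits Atp5j2, Atp5k, Atp5l, Atp5md and Atp5mpl, several of which link ATP synthase into dimers, all passed (median 0.30). None of the 5 subunits of the catalytic head and central stalk passed (median 0.07). Of the c ring and the peripheral stalk, 1 of 3 genes (Atp5g3) and 1 of 4 (Atp5o) did. Whether the parts differ from each other was not tested.

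Atp5md, also called DAPIT, was at 169.5, 195, 184, 157 and 150.2 FPKM in medium and 234, 212, 196, 212 and 198 FPKM in doxorubicin, without overlap (log2 fold change 0.30 ± 0.08; adjusted p = 0.122; block 0.0181). Atp5l, subunit g, was at 191, 256, 233, 225 and 203 FPKM in medium and 289, 288, 267, 254 and 261 FPKM in doxorubicin, where medium replicate 2 just reached the doxorubicin range (log2 fold change 0.30 ± 0.08; block 0.0184). All 50-base windows of both coding sequences recur in other annotated transcripts (4 other genes for Atp5md and 14 for Atp5l), so their levels are uncertain. Atp5k, subunit e, shares 2.4% of its windows and was at 111, 131, 118, 86.3 and 89.1 FPKM in medium and 146, 155, 126, 117 and 116 FPKM in doxorubicin. It overlapped between groups but was higher in 5 of 5 numbers (log2 fold change 0.31 ± 0.13; block 0.0104; named after its values were seen).

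Atp5g3 was the highest of the 3 genes that encode the same mature c subunit, at 351, 422, 411, 343 and 328 FPKM in medium and 463, 439, 446, 409 and 409 FPKM in doxorubicin (log2 fold change 0.23 ± 0.08; adjusted p = 0.187; block 0.0250). Atp5g1 was at 247 ± 43.0 FPKM in medium and 277 ± 23.8 FPKM in doxorubicin, and Atp5g2 at 236 ± 18.3 and 227 ± 11.2 FPKM (SD, n = 5), and neither passed with the block. Atp5j, a stalk subunit, was at 148, 186, 179, 165 and 159.8 FPKM in medium and 201, 192, 187, 187 and 186 FPKM in doxorubicin without overlap, and missed the threshold with the block as well (log2 fold change 0.19 ± 0.07; block 0.0550). Atp5b, the catalytic beta subunit and the highest nuclear member, was at 844, 804, 771, 833 and 818 FPKM in medium and 853, 759.9, 799, 779.8 and 772 FPKM in doxorubicin. It went up in 2 of 5 numbers, and its log2 fold change of -0.04 ± 0.05 changed sign with median scaling (0.01). The sign of Sdhb turned with that scaling too (0.01).

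**Figure D3:**
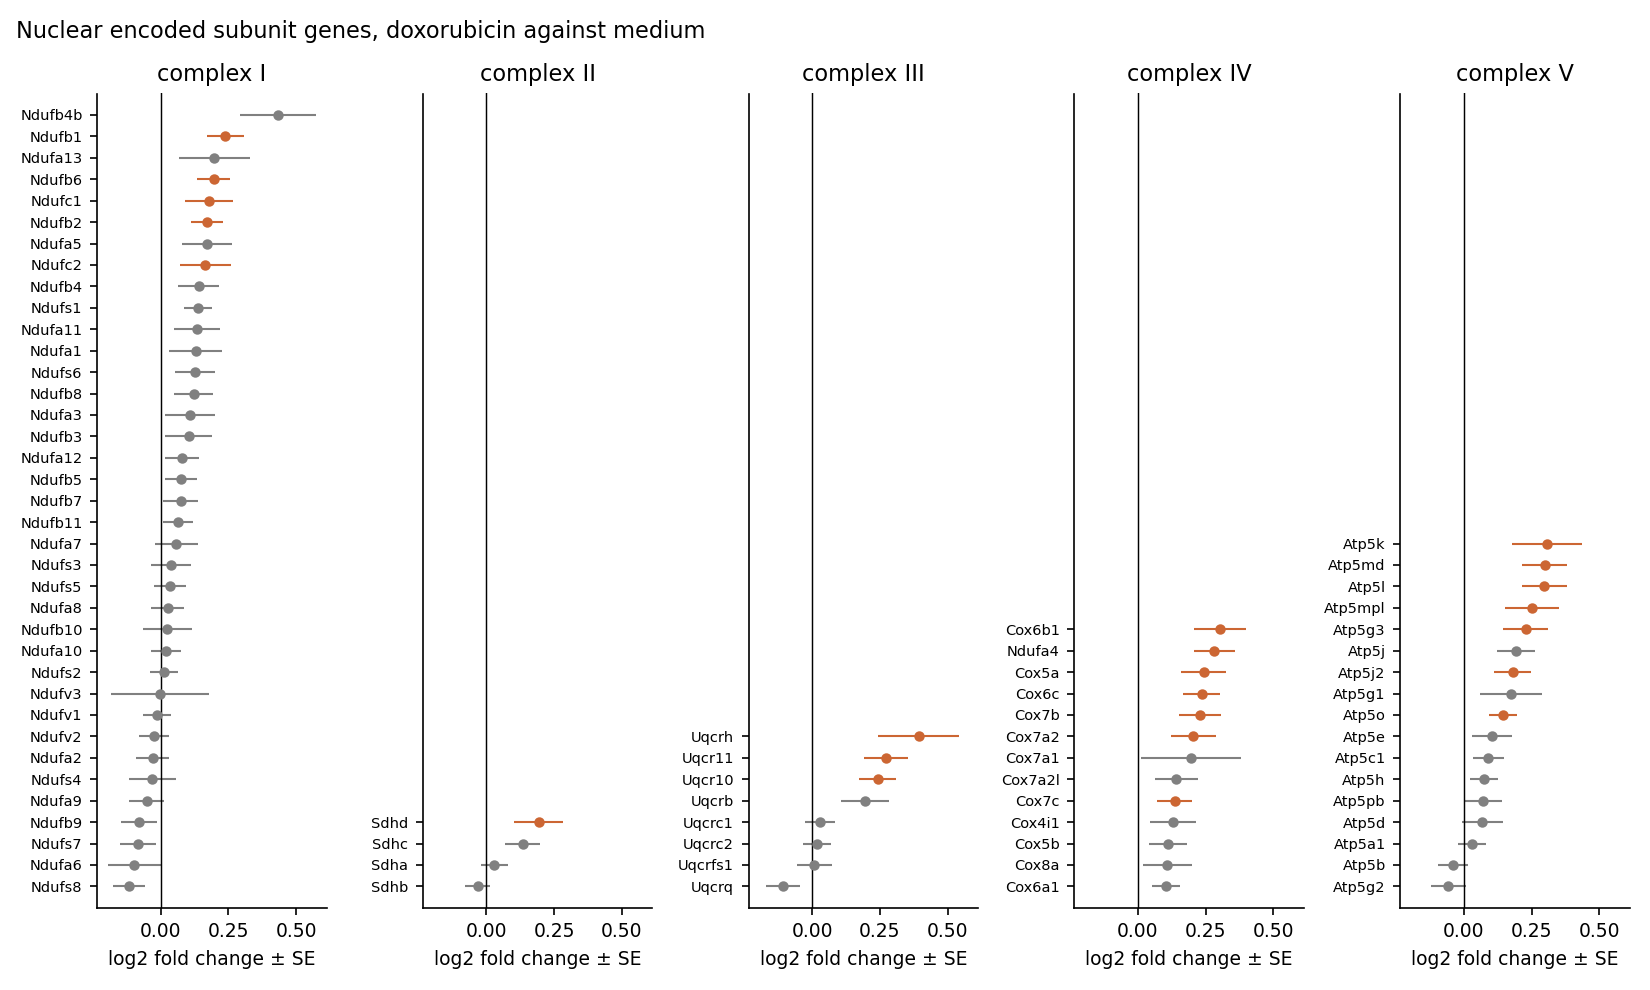
Log2 fold change (doxorubicin against medium, bars are ± 1 SE of the fit with group only, n = 5 per group) of 79 tested nuclear members by complex, with those past the threshold in the fit with the replicate block in orange. Cox6a2, at -1.29, is left off the axis. The orange points all lie above 0.13, and those of complex V include all 5 small membrane subunits.

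Complex IV has subunits with a second, tissue-restricted gene, and Cox6a2, the heart and muscle form of subunit 6a, was the only member called lower with the block. It was at 10.9, 1.91, 2.48, 10.8 and 12.9 FPKM in medium replicates 1 to 5 and at 3.27, 0.767, 1.17, 2.64 and 2.74 FPKM in doxorubicin. Medium replicates 2 and 3 were low and lay within the doxorubicin range, so the groups overlapped. Within each replicate number doxorubicin was lower, and the medium value was 3.34, 2.49, 2.11, 4.08 and 4.70 times the doxorubicin value in numbers 1 to 5. The log2 fold change was -1.29 ± 0.47 (adjusted p = 0.189 with group only, 0.00368 with the block, 0.00210 with the block and without replicate 1). Cox6a2 shares no 50-base window with other annotated transcripts. Its neighbour Itgad was at 0.0911 to 0.582 FPKM in medium and 0.132 to 1.08 FPKM in doxorubicin. It was higher in 5 of 5 numbers, as were 13.2% of all tested genes. Itgad lies below the filter on low values and was not tested, and any tie between it and Cox6a2 was not tested either. The change of Cox6a2 was named after its values were seen.

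Its partner Cox6a1, the common form, was at 291 ± 7.94 FPKM in medium and 313 ± 12.2 FPKM in doxorubicin (SD, n = 5; log2 fold change 0.10 ± 0.05; block adjusted p = 0.131). Cox7a1, the muscle form of subunit 7a, was at 9.77, 5.54, 5.73, 4.56 and 5.12 FPKM in medium and 9.62, 5.40, 7.76, 6.55 and 6.09 FPKM in doxorubicin, higher in 3 of 5 numbers (log2 fold change 0.20 ± 0.19). Cox7a2, its common partner, was at 165, 166, 156, 138 and 134 FPKM in medium and 200.2, 163, 173, 171 and 167 FPKM in doxorubicin (log2 fold change 0.20 ± 0.08; block 0.0400). The other restricted forms were near or at 0 in medium: Cox4i2 at a mean of 0.109 FPKM against 669 FPKM for Cox4i1, Cox8b at 0.0307 FPKM against 350.3 FPKM for Cox8a, Cox6b2 at 0.00504 FPKM against 311 FPKM for Cox6b1, and Ndufa4l2 at 0.00785 FPKM against 248 FPKM for Ndufa4. Cox8c was listed at 0 in every library.

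**Figure D4:**
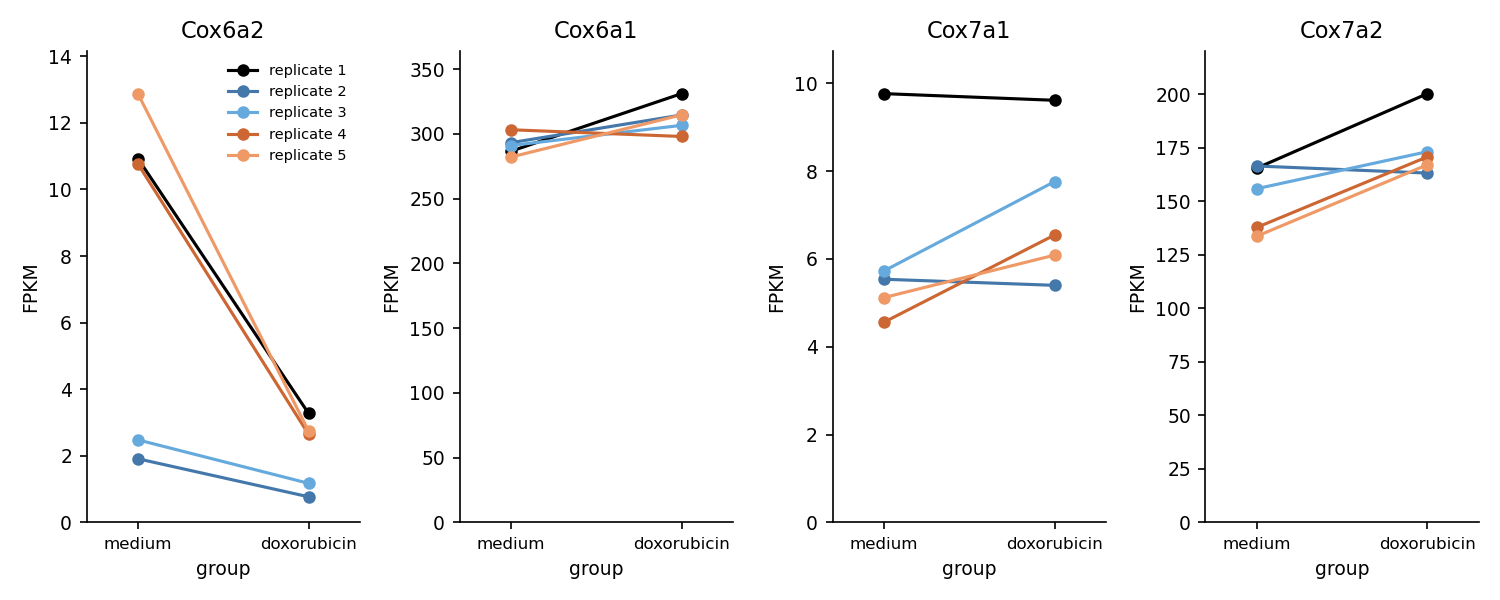
FPKM of Cox6a2, Cox6a1, Cox7a1 and Cox7a2, with 1 line per replicate number from medium to doxorubicin and each panel on its own axis from 0. All 5 lines of Cox6a2 fall, from 1.91 to 12.9 FPKM in medium down to 0.767 to 3.27 FPKM, while replicate 1 is highest in both groups for Cox7a1.

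The nuclear members called with the block were mostly short. Among 37 members with at most 400 coding bases, the median log2 fold change was 0.17, and 18 (48.6%) were called higher with the block and 1 lower. Among 27 with over 400 and up to 800 bases the median was 0.07 and 4 (14.8%) were called higher. Among 14 longer ones it was 0.02 and none was called. In the same length classes, 15.1%, 9.59% and 6.68% of the other tested genes (449, 1710 and 7549 genes) were called higher, with medians of 0.05, 0.00 and -0.04. Across the 78 tested nuclear members with a coding length, fold change and length had a Spearman correlation of -0.60, and across 9708 other genes -0.10. The Pearson correlation with log2 length was smaller over the members, -0.26, and -0.09 over the other genes. The correlations over the members include Cox6a2 (291 coding bases, log2 fold change -1.29), a short member far below the others. Within replicate numbers 1 to 5 Spearman's rho was -0.55, -0.51, -0.16, -0.51 and -0.57 over the members. These are descriptions across genes of the same 10 libraries. The part of length, and of shared coding sequence (over 50% of windows in 15 of 78 members, of which 5 were called higher), in the calls was not tested.

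**Figure D5:**
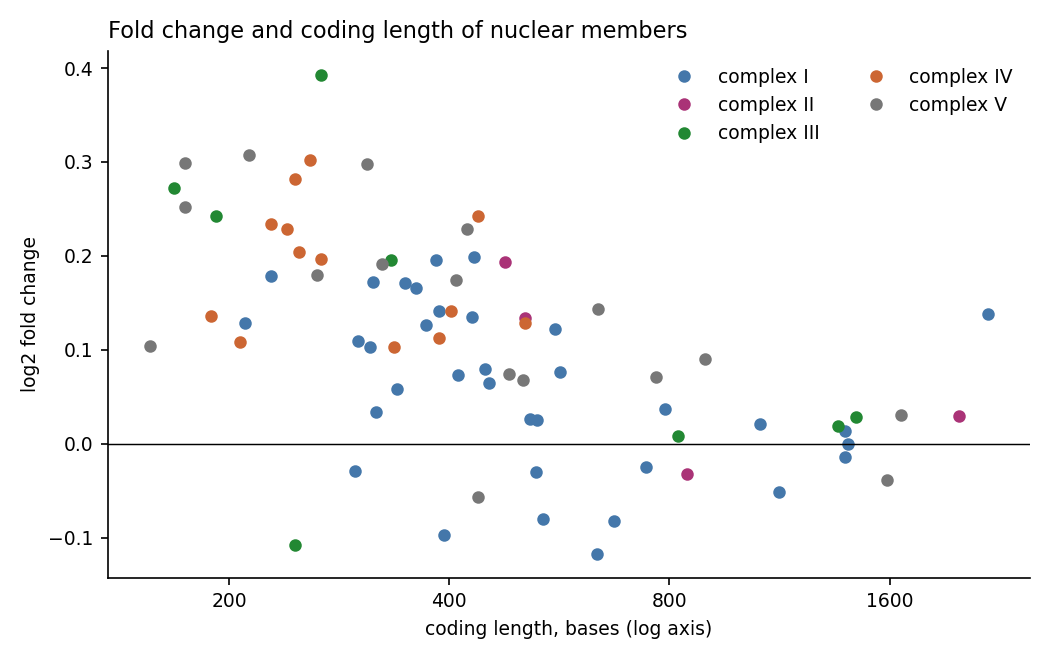
Log2 fold change (doxorubicin against medium) against coding length in bases (log axis) for the tested nuclear members with a coding length except Cox6a2, coloured by complex. Points up to 400 bases reach 0.39, and those over 800 bases lie between -0.05 and 0.14.

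Nuclear subunit genes are known targets of the transcription factors NRF1, GABP (an ETS family factor) and YY1, so their promoters were searched for the central letters of the known motifs: GCANGCG (NRF1), CCGGAAG (ETS) and AAGATGG (YY1), on both strands. RefSeq promoters (build GRCm38.p6), which run from 250 bases before to 50 after a start, were at hand for 70 members (75 promoters). The NRF1 letters occurred in 35 of 75 (46.7%) and in 16.6% of all 32851 promoters, the ETS letters in 17 (22.7%) and 8.86%, and the YY1 letters in 11 (14.7%) and 6.34%. Counted by gene, 32, 17 and 11 of the 70 members had a match. The promoters compared were not matched for base composition, and enrichment was not tested. In 0 member promoters did matches of different motifs overlap. Of 21 members called higher with the block, 11 had an NRF1 match, 8 an ETS match and 3 a YY1 match, and 16 had any. Of 46 tested members not called, the counts were 21, 9, 8 and 32. Members of both kinds thus carry them. Atp5k (called with the block; chr5:108434370-108434649, minus strand) and Atp5h (not called; chr11:115419890-115420169, minus strand) are shown from 250 bases before to 30 after the start, with matches to the NRF1 and ETS letters, on either strand, in capitals.
Atp5k: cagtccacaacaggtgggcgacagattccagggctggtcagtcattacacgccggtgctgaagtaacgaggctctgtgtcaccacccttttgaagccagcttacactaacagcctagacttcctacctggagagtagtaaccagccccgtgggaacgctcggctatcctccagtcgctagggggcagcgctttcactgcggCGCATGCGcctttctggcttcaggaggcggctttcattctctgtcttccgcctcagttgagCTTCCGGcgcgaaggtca
Atp5h: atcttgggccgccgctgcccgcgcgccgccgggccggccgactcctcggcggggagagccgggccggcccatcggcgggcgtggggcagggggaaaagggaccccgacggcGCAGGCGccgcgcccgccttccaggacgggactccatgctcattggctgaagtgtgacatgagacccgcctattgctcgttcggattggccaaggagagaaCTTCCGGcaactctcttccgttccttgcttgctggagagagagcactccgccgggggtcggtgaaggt
A match is a run of letters and does not show that a factor binds there.

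The genes that serve the complexes were taken from 13 lists with 309 genes in the table, of which 251 were tested. None of them passed the threshold with group only, 14 were higher and 18 lower at an unadjusted p under 0.05, while the block called 16 higher and 21 lower. All tested genes had 6.62% higher and 11.2% lower without adjustment and 7.81% higher and 13.7% lower with the block, larger shares than among the listed genes together, and the counts of each list below are to be read beside the same 7.81% and 13.7%. The median log2 fold change of all 251 was 0.01. Of 9 carriers and subunits outside the name pattern none passed with the block (median 0.05), among them Ndufab1, the acyl carrier protein of complex I, Etfdh, and Cycs, which encodes cytochrome c (44.0 ± 11.9 FPKM in medium and 51.2 ± 5.92 FPKM in doxorubicin; log2 fold change 0.25 ± 0.18).

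Of 18 complex I assembly factors, 1 was higher with the block (Ndufaf2, with a log2 fold change of 0.29 ± 0.09) and 2 lower (Nubpl, -0.25 ± 0.11, and Ndufaf3, -0.21 ± 0.10). Of 14 for complexes II, III and V none passed, with Sdhaf2, Bcs1l and Sdhaf1 at the smallest p. Of 25 for complex IV, Pet100 passed higher (0.17 ± 0.14) and Sco2 (-0.23 ± 0.10) and Coa4 (-0.19 ± 0.19) lower. Pet100 and Coa4 were named after their values were seen. The medians of these 3 lists were 0.02, 0.03 and 0.06.

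Genes of mitochondrial DNA upkeep and transcription had a median of -0.11 over 21 tested, and 6 were lower with the block and none higher. Tefm, the elongation factor of mitochondrial RNA polymerase, was at 14.2 ± 0.900 FPKM in medium and 11.9 ± 0.678 FPKM in doxorubicin (log2 fold change -0.23 ± 0.07; block adjusted p = 0.0154). Tfb1m, which methylates mitochondrial ribosomal RNA, was at 12.9 ± 1.52 and 9.99 ± 1.16 FPKM (log2 fold change -0.33 ± 0.10; block 0.00674), and Mgme1, a mitochondrial DNA nuclease, at 10.7 ± 1.37 and 9.02 ± 0.920 FPKM (block 0.0396). Each of these was lower in all 5 numbers. Of 24 genes of mitochondrial RNA processing, 4 were lower with the block (Fastk, Cdk5rap1, Ptcd1 and, named after its value was seen, Angel2) and 1 higher (Elac2, likewise), with a median of 0.04. Regulators of mitochondrial biogenesis had a median of -0.13 over 14 tested, and 3 were lower with the block: Gabpb2 (-0.39 ± 0.11) and Gabpa (-0.20 ± 0.11, named after its value was seen), which encode parts of GABP, and Nrf1 (-0.37 ± 0.14). Ppargc1b, a coactivator of these factors, was at 2.29 ± 0.326 and 2.69 ± 0.125 FPKM (log2 fold change 0.17 ± 0.08; block 0.120).

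Of 19 enzymes of the tricarboxylic acid cycle, Mdh2 passed with the block (higher, 0.17 ± 0.07), and of 31 import genes Tomm6 (0.16 ± 0.06), Tomm7 (0.15 ± 0.07) and Timm29 (0.29 ± 0.14) did. Inner membrane carriers and cristae genes had 8 of 23 higher with the block and none lower, of which Slc25a10, a dicarboxylate carrier, had the largest log2 fold change (0.37 ± 0.15; block adjusted p = 0.00339). Micos13 (0.21 ± 0.06), Apoo (0.31 ± 0.09) and Micos10 (0.26 ± 0.08) belong to the complex that shapes cristae. The others were the carriers Slc25a4 (0.22 ± 0.08), Slc25a13 (0.23 ± 0.10) and Mpc2 (0.26 ± 0.15) and the prohibitin gene Phb (0.18 ± 0.09), and these 4 and Slc25a10 were named after their values were seen. Coenzyme Q synthesis had 2 of 13 lower, Coq6 (-0.29 ± 0.06; adjusted p = 0.0602 with group only, 0.0122 with the block) and Coq3 (-0.17 ± 0.06), and a median of -0.09. Among 14 proteases and chaperones, Hspa9 (-0.36 ± 0.09) and Lonp1 (-0.35 ± 0.12) were lower with the block and Hspe1 (0.20 ± 0.08) was higher. Mitochondrial ribosomal protein genes were mostly under the filter in this table (26 of 78 tested; median level 0.738 FPKM over all 78 in medium), and none of the 26 passed with the block (median -0.03). The 26 had a median of 1.27 FPKM in medium, where log2(FPKM + 1) understates changes. The lowest, at 0.971 FPKM in medium, passed the filter only through doxorubicin.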

How the data were processed

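The authors deposited 1 table of FPKM values with 1 column per library and genes named by symbol. RNA was fragmented and reverse transcribed with random primers after oligo(dT) selection, per the labels' protocols. Per the submitters' processing notes, GRCm39 served as the genome build. Which aligner, quantifier and annotation were used, and whether strand was counted, is not given in the sources used here. No whole-read steps were found among low values, so no count test was run and no counting interval is given.

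Values were analysed as log2(FPKM + 1), for the 9869 genes that averaged 1 FPKM or more, with limma 3.58.1 in R 4.3.3 (mean-variance trend, group as the only term, Benjamini-Hochberg adjustment over all 9869 genes, adjusted p under 0.05). The code was tested on simulated data. The members, the gene lists, the tests and the rule for named genes were chosen with earlier results of these data known. That rule names members past the threshold, all mitochondrial members, the 4 members of each nuclear complex with the smallest p, the highest member of each complex, isoform partners by level, and up to 3 genes per list with the smallest p. Other genes were named after their values were seen.

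Both groups carry replicate numbers 1 to 5 in the titles. Deviations from the group means correlated at 0.79, 0.70, 0.67, 0.52 and 0.55 between same-numbered libraries (numbers 1 to 5), at 0.69 and 0.59 between numbers 2 and 3, at 0.51 and 0.51 between 4 and 5, and at 0.00294 or lower between the rest. Since each same-numbered value exceeded 0.1, the numbers were taken to pair the libraries, and a fit with the number as a block stands beside the main one. The labels do not say what a number marks. Alternatives were a pseudocount of 0.1, no filter on low values, median scaling, totals without mitochondrial genes, each library left out, both replicate 1 libraries left out, and an exact permutation test over libraries (two-sided, 252 arrangements, smallest p 0.00794).

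Coding lengths and shared 50-base windows came from GENCODE release M21 transcripts (GRCm38), which matched 97 members, and gene copies were aligned with Biopython 1.88.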

Additional observations from a re-analysis of the deposited data

Results flagged for a closer look

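In groups of 5 libraries, a library was set apart where its gap to the nearest of the others exceeded 0.71 of the group's range. This happened in 6 of the 78 groups examined, and chance alone flags about 1 in 20. All 6 concern a replicate 1 library. In medium replicate 1, ND4 was at 263.3 FPKM (the other 4 medium libraries at 427.3 to 473.0), CYTB at 694.7 FPKM (1187 to 1346), and mitochondrially encoded genes together took 1.815% of all FPKM (2.531 to 2.82%). In doxorubicin replicate 1, ND1 was at 1379 FPKM (the others at 1786 to 1873), Uqcrh at 218.3 FPKM (175.7 to 186.8) and Cox4i1 at 881.6 FPKM (681.9 to 726.3). With both replicate 1 libraries left out, the log2 fold changes of ND4, CYTB and ND1 were 0.20, 0.26 and 0.23 in place of 0.35, 0.44 and 0.39, and those of Uqcrh and Cox4i1 were 0.40 and 0.10 in place of 0.39 and 0.13. The gap in the summed mitochondrial share was 0.365 in place of 0.472 percentage points.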

How the results depend on the processing

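Over all genes, 90 passed the threshold with group only. The replicate block gave 2127, both replicate 1 libraries left out 556, the same with the block 2827, the block of 3 sets 3168, and the exact permutation test 0. That test cannot go below 0.00794 before adjustment. With 1 library left out the count ran from 15 to 226. Among the members, 1 passed with group only, and 32 with the replicate block, 3 with median scaling, 5 without replicate 1, 39 without replicate 1 and with the block, and 49 with the block of 3 sets. It was 0 with a pseudocount of 0.1, with no filter, with totals without mitochondrial genes and in the permutation test, and 0 to 4 with 1 library left out. Of the listed pathway genes, 0 passed with group only and 37 with the block. The cause of these shifts in counts was not tested.

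Medians and sums kept their direction in each alternative run. The nuclear median ran from 0.078 to 0.127 and the mitochondrial median from 0.341 to 0.621 with 1 library left out, and the gap in the summed mitochondrial share from 0.299 to 0.550 percentage points. Of single members, Sdhb (0.014) and Atp5b (0.008) turned positive with median scaling. No scaling moved the median of all genes by over 0.1. The depth is unknown for every member, and sequence shared with other genes touches nuclear members such as Atp5l and Cox7c as well as mitochondrial ones.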
